A study of Mus musculus with 12 samples.

Results

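Histone deacetylases are the enzymes that take acetyl groups off lysines of histones and of other proteins. Described here are 10 zinc-dependent histone deacetylase genes, Hdac1 to Hdac9 and Hdac11, called the members, and Hdac10 was not included. They were taken by gene name from the 28842 genes of the deposited expression table, without using any measured value. RNA of the prefrontal cortex of wild-type male C57BL/6J mice was sequenced in 12 libraries, 6 per group. Cocaine libraries came from mice injected in adolescence, on postnatal days 28 to 42, with cocaine at 15 mg/kg. Saline libraries came from mice injected with saline over the same days. Both groups went through conditioned place preference, a behavioural test of drug seeking: a pre-test on day 75, 1 mg/kg cocaine before training on days 76 and 77, and a test on day 78. Tissue was taken 30 to 60 min after that test, so the comparison is of adolescent exposure in mice that all had cocaine as adults.

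Acetylation of histone tails loosens chromatin and marks active promoters and enhancers, and deacetylation reverses it. Hdac1, Hdac2 and Hdac3 of class I work as the catalytic subunits of nuclear co-repressor complexes, whereas class IIa enzymes move between nucleus and cytoplasm with neuronal activity and repress MEF2 transcription factors. In rodents, changing the activity of these enzymes in the brain is known to alter behavioural responses to cocaine and the strength of memories.

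The libraries held 16.9 to 18.8 M reads in cocaine mice and 16.7 to 19.9 M reads in saline mice. Since the labels do not tie each library to its own mouse, p-values rest on library-to-library spread, which may be technical. The labels also name a mesenchymal stem cell line, C3H 10T1/2, but the libraries had the RNA of cortex. The 10 excitatory neuron markers, such as Slc17a7 and Neurod6, were above 0 in every library and summed to 1300 to 2013 FPKM in cocaine libraries and 1327 to 1704 FPKM in saline libraries. FPKM, computed here per kilobase of exon length and per M of the column sum, comes from the deposited values. Summed levels of 12 oligodendrocyte markers, which follow myelin content, ranged from 539 to 2190 FPKM in cocaine libraries and from 356 to 2641 FPKM in saline libraries. In such bulk tissue, fewer cells of a type and less RNA per cell cannot be told apart.

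None of the 10 members was called as differing between cocaine and saline mice. The test was limma, a linear model with variances shared across genes, on log2(value + 1) over the 13016 genes with a mean level of at least 1 FPKM, and all 10 members passed that filter. No member reached an adjusted p (Benjamini-Hochberg) of 0.05 in limma, as was true of all genes tested, where 0 of 13016 were called (0% called). At an unadjusted limma p under 0.05, 0 members stood against 149 genes, or 1.14% of those tested. DESeq2 on the recovered reads called 3 genes and edgeR called 0, none of them a member. The cocaine and saline libraries overlapped for all 10 members, and 0.0768% of tested genes had groups that did not overlap. Of the 10 members 5 were higher and 5 were lower in cocaine mice, with a median log2 difference of -0.00232, against a median of 0.00756 over all tested genes. The median size of the difference, regardless of sign, was 0.0222 for the members and 0.0588 over all tested genes. In fold terms all 10 of the 95% intervals lay between 0.751 and 1.30.

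**Figure D1:**
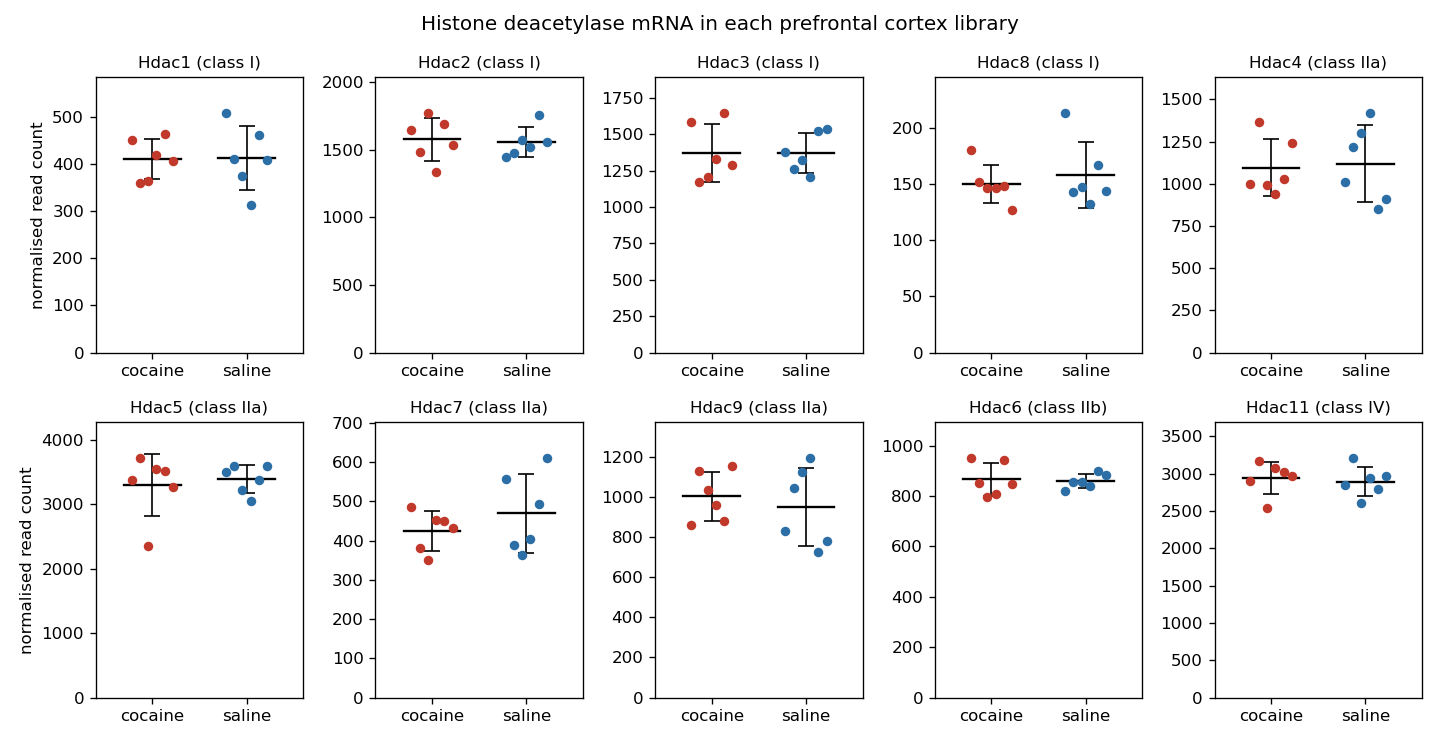
Normalised read count (y axis, from 0) of each histone deacetylase in the 6 cocaine and 6 saline libraries; points are libraries in replicate order, the long line is the mean and the bar is 1 SD. The groups overlap in every panel, and the lowest Hdac5 point is the cocaine library at 2354.

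Class I holds Hdac1, Hdac2, Hdac3 and Hdac8. Hdac1 (chr4:129516104-129542713, minus strand, GRCm38) and its close relative Hdac2 (chr10:36974544-37001889, plus strand) are the catalytic subunits of the Sin3, NuRD and CoREST complexes. Hdac1 ranged from 360 to 464 normalised reads with a median of 413 in cocaine libraries, and from 314 to 509 with a median of 410 in saline libraries. The 2 extremes of Hdac1 were both saline libraries, replicate 4 at the bottom and replicate 1 at the top. Its log2 difference was 0.00 ± 0.12 (SE), with a 95% interval of -0.25 to 0.25 (limma adjusted p = 1.00, exact permutation p = 0.989). Of the 50-base words of Hdac1 transcripts, 31.7% also occur in the processed pseudogene Gm10093, so part of its reads could have been placed there. Gm10093 itself held 14.3 to 29.7 normalised reads in cocaine libraries and 15.9 to 39.5 in saline libraries.

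Hdac2 ranged from 1331 to 1769 normalised reads with a median of 1588 in cocaine libraries, and from 1448 to 1759 with a median of 1536 in saline libraries. Its lowest and highest libraries were both cocaine ones, replicates 4 and 3, so the saline range sat inside the cocaine range. The log2 difference of Hdac2 was 0.02 ± 0.08 (SE), with an interval of -0.16 to 0.19. Hdac3 (chr18:37935844-37954988, minus strand), the catalytic subunit of the NCoR co-repressor complexes, ranged from 1172 to 1644 with a median of 1309 in cocaine libraries. In saline libraries Hdac3 ranged from 1203 to 1535 with a median of 1350. Both means of Hdac3 were 1370 normalised reads, and its log2 difference was -0.01 ± 0.10 (SE), with an interval of -0.22 to 0.21.

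Hdac8 (chrX:102284639-102505359, minus strand), which removes acetyl groups from the cohesin subunit Smc3, had the fewest reads of the members. It ranged from 127 to 180 normalised reads with a median of 147 in cocaine libraries, and from 132 to 213 with a median of 146 in saline libraries. The medians lay close together, and replicate 1 was the highest library in each group. The log2 difference of Hdac8 was -0.06 ± 0.13 (SE), with an interval of -0.33 to 0.21.

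Class IIa holds Hdac4, Hdac5, Hdac7 and Hdac9, which have weak catalytic activity of their own, bind MEF2 factors, and leave the nucleus when kinases phosphorylate them and 14-3-3 proteins hold them in the cytoplasm. Hdac4 (chr1:91928779-92195699, minus strand), needed for learning in the mouse forebrain, ranged from 940 to 1366 normalised reads with a median of 1013 in cocaine libraries, and from 851 to 1419 with a median of 1114 in saline libraries. Hdac4 lay between 1219 and 1419 in 2 cocaine and 3 saline libraries and between 851 and 1026 in the other ones, so both groups were split between a high and a low level. Its log2 difference was -0.02 ± 0.14 (SE), with an interval of -0.31 to 0.27. Exons of the opposite-strand gene Gm26720 cover 3536 of the 15813 exon bases of Hdac4, and the strand setting of the counting is not given, so reads of the pair cannot be told apart there.

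Hdac5 (chr11:102194432-102230166, minus strand), known to limit cocaine reward when active in the nucleus accumbens of rodents, ranged from 2354 to 3721 normalised reads with a median of 3451 in cocaine libraries. In saline libraries Hdac5 ranged from 3049 to 3605 with a median of 3444. The cocaine libraries other than replicate 3 lay between 3279 and 3721, so that 1 library carried the low end. The log2 difference of Hdac5 was -0.05 ± 0.10 (SE), with an interval of -0.27 to 0.17, and without cocaine replicate 3 it was 0.04.

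Hdac7 (chr15:97792664-97844502, minus strand), best known from developing thymocytes and blood vessels, had the most negative estimate of the members. It ranged from 349 to 486 normalised reads with a median of 441 in cocaine libraries, and from 363 to 610 with a median of 448 in saline libraries. The 3 highest Hdac7 values were saline libraries, replicates 6, 1 and 5, while the lowest value was a cocaine library. Its log2 difference was -0.12 ± 0.14 (SE), with an interval of -0.41 to 0.17 (limma adjusted p = 1.00, exact permutation p = 0.403). Hdac9 (chr12:34047580-34917095, minus strand), a gene whose catalytic part is lacking from some splice forms, had the most positive estimate. It ranged from 860 to 1155 normalised reads with a median of 996 in cocaine libraries, and from 727 to 1194 with a median of 939 in saline libraries. The saline libraries held both the lowest and the highest Hdac9 values. Its log2 difference was 0.09 ± 0.13 (SE), with an interval of -0.19 to 0.38 (limma adjusted p = 1.00, exact permutation p = 0.519).

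Hdac6 (chrX:7930120-7947889, minus strand) is the class IIb member here, a mainly cytoplasmic enzyme that deacetylates α-tubulin and Hsp90. It ranged from 797 to 950 normalised reads with a median of 849 in cocaine libraries, and from 819 to 900 with a median of 856 in saline libraries. The highest values, 950 and 943, were cocaine replicates 1 and 5, above all saline libraries. The lowest, 797 and 809, were cocaine replicates 3 and 4, below all saline libraries. Its log2 difference was 0.01 ± 0.07 (SE), with an interval of -0.14 to 0.16. Hdac11 (chr6:91156665-91174692, plus strand), the sole class IV enzyme, which also removes long fatty acyl groups from lysines, ranged from 2541 to 3164 with a median of 2993 in cocaine libraries. In saline libraries Hdac11 ranged from 2606 to 3206 with a median of 2892. In each group replicate 3 was the lowest and replicate 2 the highest. The log2 difference of Hdac11 was 0.02 ± 0.07 (SE), with an interval of -0.13 to 0.18. Opposite-strand exons of Gm44002 cover 594 of its 3849 exon bases.

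**Figure D2:**
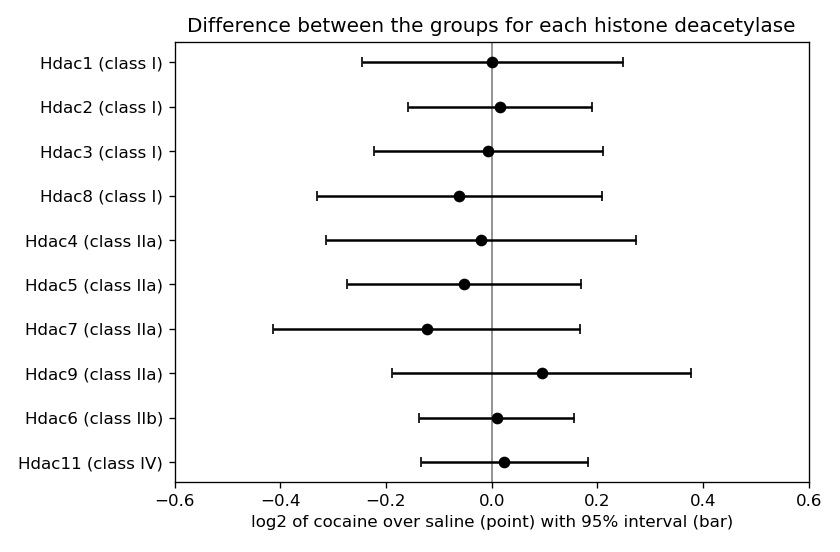
Difference between the groups (x axis, log2 of cocaine over saline) for each histone deacetylase, as the limma estimate with its 95% interval. All 10 intervals cross 0; Hdac6 and Hdac11 have the narrowest, Hdac4, Hdac7 and Hdac9 the widest.

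The authors' deposited table also held no member past its threshold: its p-values for the members ran from 0.330 for Hdac7 to 0.999 for Hdac3, all with an adjusted p of 1.00. A time tag in the labels, day 0 or day 5, splits each group into 3 and 3 libraries. Between libraries tagged day 0 the members' log2 differences ran from -0.15 to 0.10, with 5 higher and 5 lower in cocaine. Between libraries tagged day 5 they ran from -0.12 to 0.12, with 6 higher and 4 lower. Within either tag limma called 0 members, against 1 of 13016 genes called for day 0 and 0 for day 5, with 280 and 175 genes at an unadjusted p under 0.05.

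Levels per length differed over more than an order of magnitude among the members. Hdac11 was the highest, at 43.4 ± 2.97 FPKM in cocaine libraries and 42.7 ± 3.43 FPKM in saline libraries (SD, n = 6 each). Hdac5, at 21.4 ± 3.06 FPKM in cocaine and 21.98 ± 2.01 FPKM in saline, Hdac2, at 20.02 ± 2.18 and 19.7 ± 1.74 FPKM in cocaine and saline, and Hdac3, at 19.4 ± 3.04 and 19.4 ± 2.53 FPKM, came next and close together. Hdac6 and Hdac1 formed a middle pair, with Hdac6 at 8.46 ± 0.696 FPKM in cocaine and 8.39 ± 0.476 FPKM in saline, and Hdac1 at 6.79 ± 0.802 FPKM in cocaine and 6.84 ± 1.27 FPKM in saline. The other class IIa genes were low: Hdac4 at 3.92 ± 0.523 and 3.996 ± 0.690 FPKM in cocaine and saline, Hdac9 at 3.88 ± 0.426 and 3.66 ± 0.639 FPKM, and Hdac7 at 3.58 ± 0.462 and 3.96 ± 0.975 FPKM. Hdac8 was the lowest, at 1.76 ± 0.207 FPKM in cocaine and 1.85 ± 0.381 FPKM in saline.

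Over all 12 libraries, neighbours in the order of mean FPKM were compared with an exact sign-flip permutation test, two-sided and adjusted over the 9 neighbouring pairs, whose smallest p is 0.000488 before adjustment. Hdac11 exceeded Hdac5 in 12 of 12 libraries, by 1.00 ± 0.12 on the log2 scale (SD; exact adjusted p = 0.00110). Hdac3 exceeded Hdac6, Hdac1 exceeded Hdac4, and Hdac9 exceeded Hdac8, each in 12 of 12 libraries with the same exact adjusted p of 0.00110. Hdac6 exceeded Hdac1 in 11 of 12 (exact adjusted p = 0.00176), but this step depended on the length used. With the longest annotated transcript as length, 5037 bases for Hdac6 and 2038 for Hdac1, Hdac1 had the higher mean level per base. On FPKM the other steps of the order stayed within the spread between libraries. These were Hdac5 over Hdac2 (0.12 ± 0.26 on the log2 scale, exact adjusted p = 0.212), Hdac2 over Hdac3 (0.04 ± 0.17, exact adjusted p = 0.518), Hdac4 over Hdac7 (0.08 ± 0.45, exact adjusted p = 0.595) and Hdac7 over Hdac9 (-0.01 ± 0.46, exact adjusted p = 0.942). They depended on the length used too. With the longest annotated transcript as length, 7 of the 9 steps kept their direction and passed, against 5 on FPKM, so some of these steps passed there. The 10 members summed to 133 ± 8.39 FPKM in cocaine libraries and 133 ± 8.66 FPKM in saline libraries (SD). Class I made up 36.2% of that sum in cocaine and 36.04% in saline, class IIa 24.7% and 25.4%, Hdac6 6.38% and 6.34%, and Hdac11 alone 32.8% in cocaine and 32.2% in saline.

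**Figure D3:**
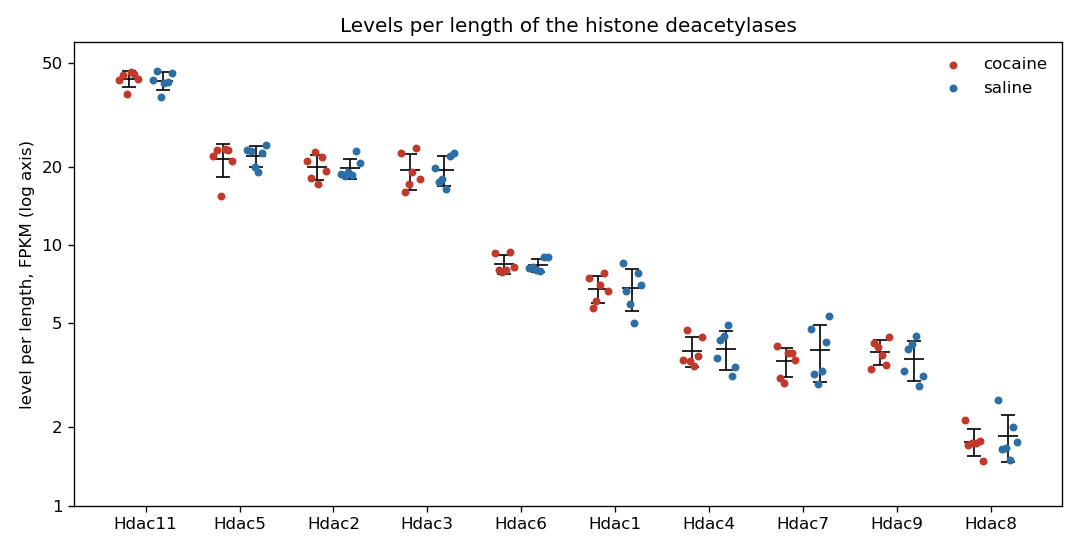
Level per length (y axis, FPKM, log axis) of each member in cocaine libraries (left in each pair) and saline libraries (right); points are libraries and bars are the mean with 1 SD. Hdac11 stands at the top near 43.1 FPKM, Hdac5, Hdac2 and Hdac3 lie together near 20, and Hdac8 is the lowest at 1.81.

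The members differed in how much they varied among libraries. Over the 12 libraries the coefficient of variation of the normalised reads was 5.62% for Hdac6, the steadiest, and 6.89% for Hdac11. It was 16.3% for Hdac9, 17.3% for Hdac4 and 17.7% for Hdac7, the most variable.

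Some members moved together or against each other. Many tested genes did so: as described below, a main direction held 43.4% of the variance of the genes that are not members. The share of all gene pairs with an r this large was not computed. The p-values here test against no relation at all, so they do not show that a relation is particular to the members. Hdac4 and Hdac9 moved together across libraries (Pearson's r = 0.89, Spearman's rho = 0.87, permutation adjusted p = 0.0144 for r and 0.0284 for rho, over all 45 pairs of members), with r of 0.75 within cocaine libraries and 1.00 within saline libraries, and 0.86 without the 2 libraries farthest from the median of Hdac4. Hdac9 moved against Hdac3 (r = -0.81, rho = -0.78, permutation adjusted p = 0.0244 and 0.0386), Hdac7 (r = -0.80, rho = -0.76, permutation adjusted p = 0.0244 and 0.0454) and Hdac1 (r = -0.77, rho = -0.77, permutation adjusted p = 0.0276 and 0.0452). Unadjusted, these 4 relations had a permutation p for r of 0.00032 to 0.00368. Hdac4 had r of -0.68, -0.67 and -0.63 with Hdac1, Hdac3 and Hdac7, none past the threshold (permutation adjusted p = 0.0686, 0.0818 and 0.0964). The 3 relations of Hdac9 kept r of -0.88, -0.81 and -0.72 without the 2 farthest libraries. Saline replicate 4, for example, had the highest Hdac4 and Hdac9 and the lowest Hdac1 of all 12 libraries, whereas saline replicate 5 had the lowest Hdac4 and Hdac9. Hdac3 and Hdac6 had r = 0.80 (permutation adjusted p = 0.0244), but by rank rho was 0.64 (permutation adjusted p = 0.148), and r was 0.58 without cocaine replicates 1 and 5, on which the relation partly rested. Hdac1 and Hdac3 passed by rank only, with rho = 0.81 (permutation adjusted p = 0.0386) and r = 0.72 (permutation adjusted p = 0.0591). Their r was 0.86 without saline replicates 1 and 4.

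A separate pair was Hdac5 and Hdac11, from different classes (r = 0.76, rho = 0.79, permutation adjusted p = 0.0244 for r and 0.0386 for rho, unadjusted 0.00271 and 0.00343). Their r was 0.98 within cocaine libraries and 0.49 within saline libraries, and 0.80 without cocaine replicate 3 and saline replicate 4. Cocaine replicate 3 was the lowest library of all for both genes.

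**Figure D4:**
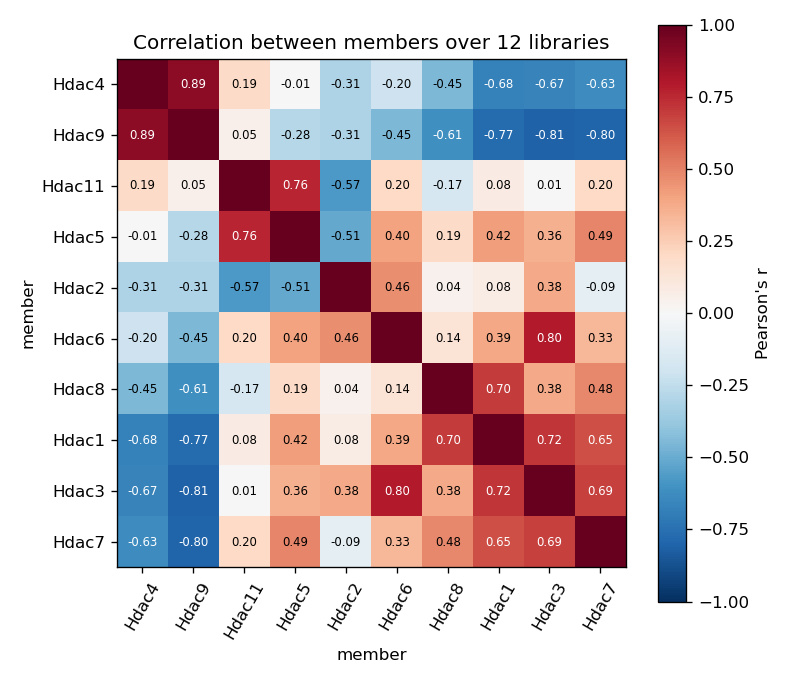
Pearson's r over 12 libraries between each pair of members (rows and columns, colour from -1 to 1), on log2(value + 1). Hdac4 and Hdac9 correlate at 0.89, Hdac9 has r of -0.77 to -0.81 with Hdac1, Hdac3 and Hdac7, and Hdac5 and Hdac11 correlate with each other at 0.76.

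To show what lies at the start of the genes that moved together, the promoter windows of both pairs are given, 250 bases before to 50 bases after the annotated start, from RefSeq on GRCm38.p6, 5′ to 3′ along the gene. RefSeq windows were found for 8 of the 10 members. Capitals mark the GC box GGGCGG, the CCAAT box CCAAT and the TATA box TATAAA on either strand. The windows are chr1:92180292-92180591 (minus strand) for Hdac4, chr12:34917046-34917345 (minus) for Hdac9, chr11:102230123-102230422 (minus) for Hdac5 and chr6:91156565-91156864 (plus) for Hdac11.
Hdac4: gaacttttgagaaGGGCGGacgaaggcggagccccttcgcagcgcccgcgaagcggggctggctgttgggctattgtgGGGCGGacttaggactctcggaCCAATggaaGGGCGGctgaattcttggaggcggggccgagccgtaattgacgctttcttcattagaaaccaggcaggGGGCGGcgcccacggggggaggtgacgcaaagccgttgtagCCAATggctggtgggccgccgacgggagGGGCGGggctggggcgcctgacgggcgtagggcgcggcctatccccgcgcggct
Hdac9: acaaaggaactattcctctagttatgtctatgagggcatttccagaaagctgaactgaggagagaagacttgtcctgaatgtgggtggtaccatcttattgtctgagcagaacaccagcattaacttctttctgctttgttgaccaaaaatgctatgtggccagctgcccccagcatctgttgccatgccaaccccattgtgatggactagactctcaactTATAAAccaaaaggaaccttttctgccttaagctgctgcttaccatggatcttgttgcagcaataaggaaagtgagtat
Hdac5: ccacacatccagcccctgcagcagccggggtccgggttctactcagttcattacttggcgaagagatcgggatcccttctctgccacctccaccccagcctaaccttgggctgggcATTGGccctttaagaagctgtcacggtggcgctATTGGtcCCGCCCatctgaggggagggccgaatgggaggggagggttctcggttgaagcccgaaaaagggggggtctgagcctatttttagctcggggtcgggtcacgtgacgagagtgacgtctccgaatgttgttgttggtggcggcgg
Hdac11: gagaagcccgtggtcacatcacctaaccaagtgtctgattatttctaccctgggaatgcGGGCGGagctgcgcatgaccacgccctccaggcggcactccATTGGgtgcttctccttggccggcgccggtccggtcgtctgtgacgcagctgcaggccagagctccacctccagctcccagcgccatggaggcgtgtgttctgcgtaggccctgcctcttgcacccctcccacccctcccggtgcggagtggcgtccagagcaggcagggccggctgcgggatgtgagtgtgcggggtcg

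Hdac4 and Hdac9 moved together but had unlike windows. That of Hdac4 held 5 GC boxes, 2 CCAAT boxes and 32 CpG sites, at a start 15358 bases away from the end of the gene in the table. That of Hdac9 held no GC box, no CCAAT box and 0 CpG sites, and 1 TATA box. RefSeq gives Hdac9 another window, chr12:34528840-34529139 (minus strand, not printed), with none of these motifs and 3 CpG sites. The windows of Hdac5 and Hdac11 each held 1 GC box, with 2 CCAAT boxes for Hdac5 and 1 for Hdac11, and 18 and 22 CpG sites. Among 32851 RefSeq promoter windows of the same length, 35.7% held a GC box, 37.4% a CCAAT box and 13.6% a TATA box.

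The members were also set against the main direction in which all libraries differed. A principal component analysis of the 13006 tested genes that are not members gave a first component with 43.4% of the variance, on which cocaine libraries (0.000164 ± 0.244, SD) and saline libraries (-0.000164 ± 0.375) overlapped (exact permutation p = 0.996). Against its score, Hdac9 had r = 0.95 (rho = 0.92, permutation adjusted p = 0.0002 for r and 0.0006 for rho, over the 10 relations computed), Hdac4 had r = 0.92 (rho = 0.87, permutation adjusted p = 0.0003 and 0.0025) and Hdac3 had r = -0.84 (rho = -0.80, permutation adjusted p = 0.0034 and 0.00977). Hdac1 (r = -0.74, rho = -0.71, permutation adjusted p = 0.0135 and 0.0258) and Hdac7 (r = -0.70, rho = -0.73, permutation adjusted p = 0.0248 and 0.0227) also followed it. Unadjusted, the permutation p for r ran from 2e-05 for Hdac9 to 0.0124 for Hdac7. Hdac6, Hdac2 and Hdac8 had r of -0.53, -0.49 and -0.49, and Hdac5 and Hdac11 had r of -0.12 and 0.12, none of them past the threshold. Without saline replicates 4 and 5, which lie farthest out, r was 0.92 for Hdac9, 0.86 for Hdac4, -0.82 for Hdac3, -0.63 for Hdac1 and -0.74 for Hdac7. Within the 6 cocaine libraries alone r was 0.93 for Hdac9 and 0.76 for Hdac4, and within the 6 saline libraries 0.99 for both.

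Following this component was not particular to the members. Their median r, regardless of sign, was 0.612, and that of all tested genes was 0.636. Of all tested genes 5.48% had an r at least as large as that of Hdac9, 11.3% one at least as large as that of Hdac4, 24.5% as that of Hdac3, 37.6% as that of Hdac1 and 42.9% as that of Hdac7. The component moved with gene length: within each library, the correlation across genes of length with deviation from the mean ran from -0.325 to 0.334, and over the 12 libraries that value followed the component score (r = 0.96, rho = 0.94, permutation p = 1e-05 for r, the smallest 100000 resamples can give, and 5e-05 for rho; r = 0.99 without saline replicates 4 and 5). The score and the length correlation were computed from the deviations of nearly the same genes. They were therefore not independent, and this p is no separate support for a part of length. Hdac4 with 15813 and Hdac9 with 14665 exon bases are among the longest genes, since 2.12% and 2.81% of tested genes are at least as long. The part of length, RNA quality or tissue makeup in these relations was not tested.

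With the component score as a covariate, an alternative chosen after seeing the data, the group estimates kept their size while their errors shrank. For Hdac9 the standard error was 0.05, 2.63 times smaller than without it, and the log2 difference was 0.09 with a 95% interval of -0.01 to 0.20 (unadjusted p = 0.0817, limma adjusted p = 0.998). For Hdac4 the standard error was 0.06, 2.14 times smaller, with an interval of -0.16 to 0.12. For Hdac3 it was 0.06, 1.66 times smaller, with an interval of -0.14 to 0.12. No member was called.

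**Figure D5:**
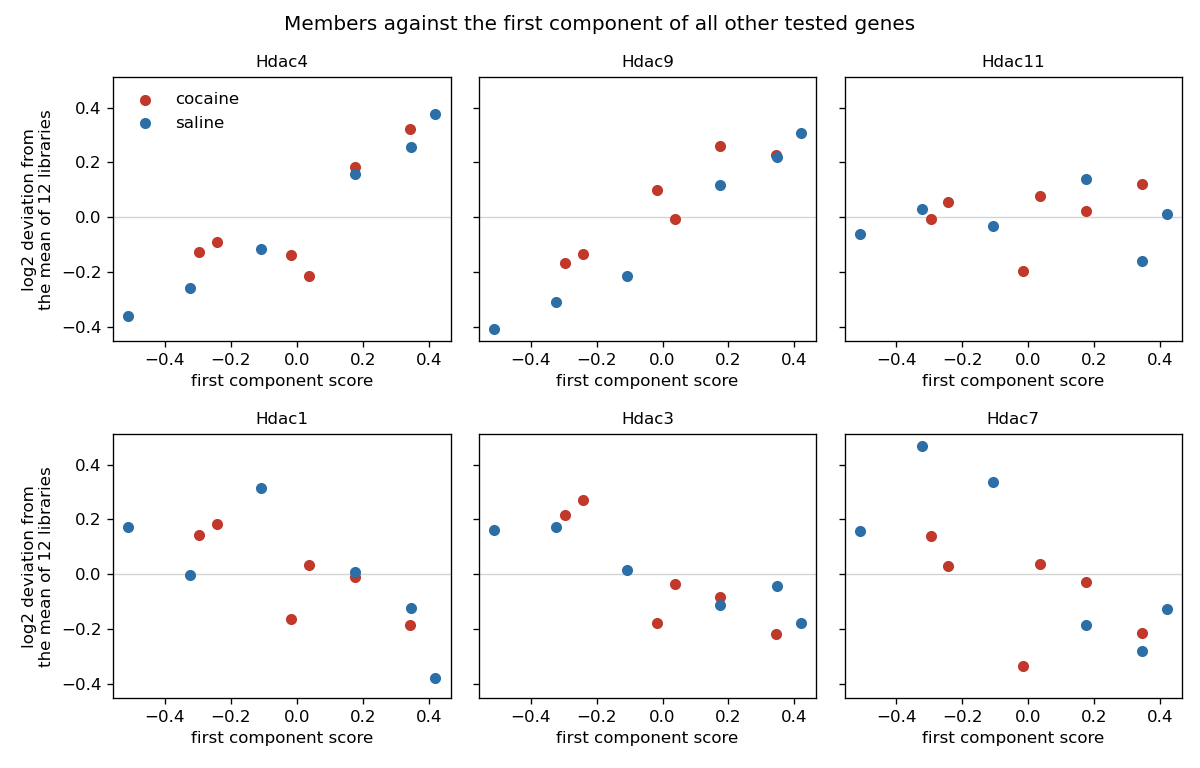
Log2 deviation of 6 members from their mean over 12 libraries (y axis) against the first component score of all other tested genes (x axis), with cocaine and saline libraries in separate colours. Hdac4 and Hdac9 climb with the score (r of 0.92 and 0.95), Hdac1, Hdac3 and Hdac7 decline with it, and Hdac11 shows little relation (r = 0.12). Cocaine libraries score from -0.296 to 0.344 and saline libraries from -0.511 to 0.420.

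Scores of 8 cell type marker lists, each the mean log2 deviation of its genes, were compared with the 10 members, and 0 of these 80 relations passed an adjusted p of 0.05 in the permutation test. The strongest were those of the excitatory neuron score with Hdac4 (r = 0.84, rho = 0.85, permutation adjusted p = 0.0736 for r and 0.0592 for rho, unadjusted 0.00137 and 0.00074) and Hdac9 (r = 0.81, rho = 0.82, permutation adjusted p = 0.0736 and 0.0880), and of the astrocyte score with Hdac6 (r = -0.77, rho = -0.67, permutation adjusted p = 0.0736 and 0.265). Without the 2 farthest libraries these had r of 0.83, 0.69 and -0.48. The relation of Hdac9 with the excitatory neuron score had r of 0.21 within cocaine libraries and 0.98 within saline libraries. The oligodendrocyte score averaged -0.09 ± 0.70 in cocaine libraries and 0.09 ± 1.12 in saline libraries (SD, exact permutation p = 0.734). Against it, Hdac4 had r = -0.66 (rho = -0.68, permutation adjusted p = 0.172 and 0.265), Hdac9 r = -0.56 (rho = -0.62, permutation adjusted p = 0.251 and 0.286) and Hdac1 r = 0.54 (rho = 0.46, permutation adjusted p = 0.259 and 0.379). For Hdac1 that r was 0.06 without saline replicates 1 and 4, -0.48 within cocaine libraries and 0.95 within saline libraries, so it rested on the saline libraries. Choroid plexus genes, read as a sign of ventricular tissue, summed to at most 1.64 FPKM in cocaine libraries but reached 539 FPKM in 1 saline library.

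The genes whose levels were most like each member were ranked by Pearson's r over 12 libraries after the group means were taken off, among 11345 named protein-coding genes, as a description with no test. All these genes share the 12 libraries and their common component. The closest to Hdac9 was Cnksr2, a synaptic scaffold protein, at r = 0.99, and Pgm2l1 also stood at 0.99. The closest to Hdac4 were H2-T24 at 0.98, Lsm11 at 0.98 and Plcl2 at 0.98. Hdac6 was closest to Arhgdia at 0.98, the neuronal surface protein gene Thy1 at 0.98 and the neuronal tubulin gene Tubb3 at 0.96.

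Hdac2 was closest to the ubiquitin-conjugating enzyme gene Ube2a at 0.98, the 14-3-3 gene Ywhaz at 0.95 and the cap-binding factor gene Eif4e at 0.94. Hdac3 was closest to the neuronal kinase gene Cdk5 at 0.97, the proteasome gene Psma7 at 0.96 and Mov10 at 0.96. For Hdac1 these were Necap2 at 0.96, Mks1 at 0.92 and Rasgrp2 at 0.91. For Hdac7 they were Prodh, which encodes proline dehydrogenase, at 0.95, Bmp1 at 0.94 and Man2c1 at 0.93. Hdac5 had Tcof1 at 0.96, Kri1 at 0.93 and Fbf1 at 0.93, and Hdac11 had Sh3bp5 at 0.94, the ion channel gene Asic4 at 0.91 and Slc38a10 at 0.90. Hdac8 had the loosest neighbours, Gtpbp10 at 0.87, Csk at 0.85 and Wfdc1 at 0.83. No member was among the 3 closest genes of another.

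The genes that work with the members were read from lists, for each of which limma called 0 genes past an adjusted p of 0.05. Over all tested genes 6990 of 13016 were higher in cocaine mice, 88 of them at an unadjusted limma p under 0.05. Lists were chosen with earlier results of these data known, and named genes by their small p in this same comparison. Their p-values therefore describe these genes and are no separate support, and the exact permutation p-values are unadjusted. Of the Sin3 complex, in which Hdac1 and Hdac2 are the enzymes, 15 genes were tested, 9 higher and 6 lower in cocaine mice, with a median log2 difference of 0.03 and none past an unadjusted limma p of 0.05. Ing2, a reader of methylated histone H3, had 616 ± 39.8 normalised reads in cocaine and 563 ± 10.2 in saline libraries (SD, n = 6 each; log2 difference 0.13 ± 0.07 SE, limma p = 0.0757 unadjusted and 1.00 adjusted, exact permutation p = 0.00433). Rbbp7, a histone-binding subunit that NuRD shares, had a log2 difference of 0.14 ± 0.12, and Brms1l one of 0.06 ± 0.07. Of the 12 NuRD genes 3 were higher and 9 lower (median -0.05), with the remodeller Chd4 at -0.09 ± 0.10 and Mbd2, which binds methylated DNA, at -0.06 ± 0.10. Of 10 CoREST genes 8 were tested, 5 higher and 3 lower (median 0.01), with Phf21a at -0.11 ± 0.09, Rcor2 at 0.08 ± 0.10 and the demethylase gene Kdm1a at 0.04 ± 0.08. Of the 7 genes listed for the NCoR complexes, the partners of Hdac3, 2 were higher and 5 lower (median -0.03). In that list Gps2 was at -0.06 ± 0.17 and Kdm4a at -0.03 ± 0.11.

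Among kinases that phosphorylate class IIa members and the 14-3-3 proteins that then bind them, 20 of 22 genes were tested, 10 higher and 10 lower (median 0.01). One of them passed an unadjusted p of 0.05, Sik1, an activity-induced kinase of class IIa enzymes. Sik1 ranged from 246 to 281 normalised reads in cocaine libraries and from 162 to 248 in saline libraries. The ranges overlapped only between 246 and 248, and the log2 difference was 0.29 ± 0.11 (SE, unadjusted p = 0.0180, limma adjusted p = 1.00, exact permutation p = 0.00866). Prkd3 had a log2 difference of -0.25 ± 0.23 and Ywhab one of 0.07 ± 0.07. Of 12 MEF2 factors and target genes 11 were tested, 4 higher and 7 lower (median -0.02), 2 of them higher at an unadjusted p under 0.05. The nuclear receptor gene Nr4a1 had 2399 ± 315 normalised reads in cocaine and 1656 ± 186 in saline libraries (SD; log2 difference 0.53 ± 0.10 SE, limma adjusted p = 1.00, exact permutation p = 0.00216). Arc, a synaptic immediate-early gene, had 3979 ± 1148 in cocaine and 2010 ± 491 in saline libraries (log2 difference 0.97 ± 0.20 SE, limma adjusted p = 1.00, exact permutation p = 0.00216). The p of 0.00216 is the smallest that the 924 arrangements of the libraries can give. For both genes the groups did not overlap, as was true of 0.0768% of tested genes. The third gene named there, Klf6, had a log2 difference of -0.09 ± 0.10.

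The next list was also chosen with earlier results of these data known, so its count is no test. Genes linked to deacetylases in earlier rodent drug and memory studies, 8 of 9 tested, had 7 higher and 1 lower (median 0.13). They include Nr4a1 again, Fos at 862 ± 172 normalised reads in cocaine and 657 ± 119 in saline libraries (log2 difference 0.39 ± 0.14 SE, limma adjusted p = 1.00, exact permutation p = 0.0346), and Fosb at a log2 difference of 0.14 ± 0.11. Of the 10 partners of Hdac6 and genes of tubulin acetylation 8 were higher and 2 lower (median 0.04), with the chaperone gene Hsp90aa1 at 0.08 ± 0.07 and the α-tubulin genes Tuba1b at 0.11 ± 0.11 and Tuba1a at 0.09 ± 0.10. The 7 sirtuins, deacetylases of another family that use NAD, had 2 higher and 5 lower (median -0.04), with Sirt6 at 0.14 ± 0.13, Sirt4 at -0.10 ± 0.16 and the myelin-enriched Sirt2 at -0.10 ± 0.18. Brd2 and Brd3, which encode readers of the acetyl marks that the members remove, had log2 differences of -0.04 ± 0.11 and -0.03 ± 0.10, both smaller than their errors.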

How the data were processed

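An Illumina TruSeq RNA kit turned 1 µg of total RNA per library into cDNA, per the labels' protocols. HISAT2 2.0.5 and a human build, hg38, stand in the submitters' processing notes, but the gene IDs are mouse, and 28825 of 28842 were in GENCODE M21, 28061 with the same start and end, so coordinates are GRCm38. Which counter was used, with which annotation and strand setting, is not given in the sources used here. The values per library are a signal that the authors deposited under the name FPKM but did not divide by length: read counts over 1 size factor per library. In every library 100% of values were whole multiples of 1 read (tolerance 0.01 read), so reads could be recovered. The authors' deposited log2 fold change, p-value and adjusted p-value were read from the same table. For a gene with no read, counting error alone allows up to 3 reads in a library.

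FPKM was computed here as the value per kilobase of exon length and per M of the column sum. The design had assumed FPKM, and its test was kept: limma 3.58.1 (trended empirical Bayes, R 4.3.3) on log2(value + 1), which understates changes of low genes, for genes averaging 1 FPKM or more, Benjamini-Hochberg adjusted over all 13016. Exact permutation tests used all 924 splits. edgeR 4.0.16 and DESeq2 1.42.0 were run on recovered reads as alternatives. In simulated data the limma fit recovered most of the known changes. Those changes were much larger than the members' differences, and the simulated libraries shared no component. Changes as small as those of the members were not simulated. The fields naming a mesenchymal cell line and day 0 or 5 formed no groups. Replicate numbers did not pair libraries. No 2 libraries of a group agreed within sampling noise. The members were taken by gene name and no measured value entered that rule. Even so, members and lists were chosen with earlier results of these data known. Named genes are all members, the 3 genes of each partner list with the smallest p, and the 3 most alike per member; a few of these are not reported here.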

Additional observations from a re-analysis of the deposited data

Results flagged for a closer look

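In 36 sets of 6 libraries of 1 group (members, marker scores and the like), the gap between the most extreme library and its nearest neighbour was compared with the whole range; chance flags about 1 in 20 such sets. One member stood out: Hdac5 was at 2354.45 normalised reads in cocaine replicate 3, where the next cocaine library was at 3279. The same library was the lowest of all for Hdac11 (2541), Hdac7 (349) and Hdac6 (797), and the highest of all for Hdac2 (1769). The interneuron marker score was -0.129 in saline replicate 4, the lowest saline library, against a saline mean of 0.01 ± 0.07 (SD, n = 6).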

How the results depend on the processing

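Under 27 alternatives (other pseudocounts, filters, scaling, variance models, library weights, covariates, edgeR, DESeq2 and leaving out each of 12 libraries), 0 members were called, with a smallest adjusted p of 0.998. A filter of at least 5 FPKM left 6 members. Over all genes DESeq2 called 3 and every other of the 27 settings 0; for limma, counts at an unadjusted p under 0.05 ran from 49 (5 FPKM filter) to 715 (no filter).

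Hdac7 stayed lower and Hdac9 higher in cocaine under each alternative that tested them, but with library weights the log2 difference of Hdac7 was -0.0147, against -0.12. Other members lay so close to 0 that their sign turned: Hdac1 had a log2 difference of -0.0087 with TMM scaling, -0.0057 with edgeR and -0.0084 with DESeq2, Hdac2 one of -0.0061 with library weights, Hdac3 one of 0.0032 with edgeR and 0.000118 with DESeq2, and Hdac6 one of -0.000904 with TMM scaling and -0.0060 with library weights. Leaving out 1 library gave -0.074 to 0.065 for Hdac1, -0.019 to 0.063 for Hdac2, -0.061 to 0.036 for Hdac3, -0.115 to 0.029 for Hdac8, -0.094 to 0.053 for Hdac4, -0.090 to 0.042 for Hdac5, -0.191 to -0.042 for Hdac7, 0.022 to 0.165 for Hdac9, -0.018 to 0.033 for Hdac6 and -0.0054 to 0.066 for Hdac11. The members' median ran from -0.03 to 0.03. The cause was not tested.

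The replicate number as a block left 0 members and 0 genes called and the members' median at -0.00232. Same-numbered libraries had correlated deviations of -0.399 to 0.435, over 0.1 in 2 of 6 pairs, and 0 of 6 cocaine libraries correlated best with their own number, so the numbers were read as names.

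Of the 9 steps in the order of levels, 5 passed the exact test on FPKM. Without division by length 6 kept their direction and passed. There Hdac5 had more reads than Hdac11, Hdac4 more than Hdac1 and Hdac9 more than Hdac7. With the longest GENCODE transcript as length 7 kept their direction and passed. Hdac6 over Hdac1, which had passed on FPKM, was not one of them, since Hdac1 then had the higher mean level per base. Some steps that had not passed on FPKM were among them. At an unadjusted permutation p under 0.05, 1 member followed the oligodendrocyte score, 0 did without the 2 farthest libraries, 1 within cocaine and 3 within saline libraries. At an adjusted p under 0.05, 5 of 10 members followed the first component (42.9% of tested genes had an r at least as large as the smallest of these, that of Hdac7), 4 without the 2 farthest libraries, 0 within the cocaine and 3 within the saline libraries; with 6 libraries such tests have little reach.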
